A study of Mus musculus with 22 samples.

Results

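Ctla2a and Ctla2b are 2 of the 23997 genes in the deposited expression table. They were chosen by symbol, after Ctla2a had been seen among the larger rises of DSS over CON in these same libraries, so the levels of both genes against CON are given below as a description with no test. The 22 libraries hold RNA of the colon of BALB/c mice without any engineered allele (wild type). The HMLS group (4 libraries) and the TM group (5 libraries) each drank a deep sea water, known here by its abbreviation alone, and both received dextran sulfate sodium in that water. The DSS group (5 libraries) drank distilled water and received dextran sulfate sodium in it, and the CON group (8 libraries) drank distilled water alone. Drinking began at 5 weeks of age and went on for 3 weeks in all 4 groups, and dextran sulfate sodium, which damages the lining of the colon and brings on colitis, was given at 5% over the final 1 week. No sex, housing or pooling was given in the sources used here.

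The Ctla2 genes, known from rodents, encode small secreted proteins that resemble the propeptide of cathepsin L. That propeptide is the stretch that keeps the enzyme inactive until it is cut away, and the Ctla2 proteins accordingly inhibit cysteine proteases of the cathepsin L kind. In mice the genes were first described in activated T lymphocytes and mast cells, and Ctla2a has since been studied in the retina, where its protein acts on T cells together with TGF-beta.

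Both genes lie on the minus strand of mouse chromosome 13 (build GRCm38, GENCODE M21). Ctla2a (ENSMUSG00000044258.10) runs over chr13:60934155-60936625, and Ctla2b (ENSMUSG00000074874.10) over chr13:60895350-60897447, with 36707 bases between them. The first transcript of each gene has 5 exons, with 414 coding bases in Ctla2a and 342 in Ctla2b. Over the 342 coding bases that align, 96.2% were identical and 13 differed. Exon 3, which is wholly coding in both genes, is shown because it lets the closeness of the pair be seen. It lies at chr13:60935547-60935669 in Ctla2a and at chr13:60896238-60896360 in Ctla2b, and the capitals mark the 3 of its 123 bases that differ.
Ctla2a exon 3: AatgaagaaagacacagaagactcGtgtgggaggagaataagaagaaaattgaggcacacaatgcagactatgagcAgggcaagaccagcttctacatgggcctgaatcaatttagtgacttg
Ctla2b exon 3: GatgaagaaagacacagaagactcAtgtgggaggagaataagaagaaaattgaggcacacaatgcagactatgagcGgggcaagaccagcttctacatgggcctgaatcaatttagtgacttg
Because the genes are so alike, reads can be assigned to the wrong one. Of all stretches of 50 bases in the first transcript, 7.1% in Ctla2a and 11.9% in Ctla2b also occurred exactly in a transcript of the other gene. At 75 bases the shares were 2.23% in Ctla2a and 3.78% in Ctla2b, and at 100 bases no stretch was shared. Read length was not given in the sources used here, so the values of each gene carry this uncertainty.

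The 250 bases before 1 listed start of each gene (RefSeq, GRCm38.p6) are shown because the levels of the pair differed while these sequences are close. Neither start is the sole one. A second start is listed for Ctla2a, and the RefSeq span of Ctla2b reaches to base 60897934, so that the Ctla2b window lies inside that longer span and before the start of the shorter GENCODE model. Over the 228 bases that align, 91.2% were identical and 20 differed. The windows are chr13:60936626-60936875 for Ctla2a and chr13:60897448-60897697 for Ctla2b, both read on the minus strand. The capitals mark 3 motifs, each searched on both strands. They are the TATA box TATAAA, the AP-1 motif TGANTCA, where N is any base, and the half-site TGACGT bound by factors that respond to cyclic AMP.
Ctla2a upstream: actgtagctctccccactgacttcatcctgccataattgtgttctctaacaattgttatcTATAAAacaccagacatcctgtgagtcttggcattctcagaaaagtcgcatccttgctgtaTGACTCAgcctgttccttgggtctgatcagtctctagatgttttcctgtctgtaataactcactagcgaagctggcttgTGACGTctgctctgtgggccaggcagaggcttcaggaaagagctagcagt
Ctla2b upstream: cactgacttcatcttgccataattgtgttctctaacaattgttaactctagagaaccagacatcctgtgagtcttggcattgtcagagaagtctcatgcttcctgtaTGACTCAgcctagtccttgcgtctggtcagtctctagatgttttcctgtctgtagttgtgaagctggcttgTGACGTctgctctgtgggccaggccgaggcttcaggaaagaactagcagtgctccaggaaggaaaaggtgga
TATAAA was found in Ctla2a alone, beginning 190 bases before the start, and 12.4% of the 32851 RefSeq windows of this length hold it. TGANTCA was found 1 time in each gene, at 129 bases before the start of Ctla2a and 143 before that of Ctla2b, and 6.75% of windows hold it. TGACGT was found 1 time in each, at 50 bases before the start of Ctla2a and 72 before that of Ctla2b, against 6.47% of windows. AGAACA, the half-site of the glucocorticoid receptor, was also found 1 time in each gene (16.1% of windows). The E-box CACGTG was in neither (6.02% of windows), and the ETS motif CAGGAAG was found 2 times in the Ctla2b window and not in that of Ctla2a (10.8% of windows). The 1 of these nearer the start lies in a stretch that in Ctla2a follows the annotated start and so falls outside its window. No 2 of the motifs marked overlapped, and a match describes the letters only.

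Library totals ranged from 48089882 to 68733410 reads, and 82.3% to 92.7% of the reads were mapped. The tissue label was checked against 10 genes of colonic epithelium, all of which were measured above the filter described below, among them Muc2, the main mucin of goblet cells, at means of 2655 FPKM in HMLS, 4166 in TM, 4665 in DSS and 5783 in CON. Mapping was lower in DSS libraries, at 82.3% to 88.9%, than in CON libraries, at 89.9% to 91.9%, with no overlap, so mapping and group cannot be told apart in that comparison. HMLS libraries, at 88.8% to 90.5%, and TM libraries, at 89.5% to 92.7%, overlapped CON. Every TM library was mapped above every DSS library, so mapping and group cannot be told apart in TM vs DSS either. HMLS and DSS overlapped only between 88.8% and 88.9%. Levels are FPKM, fragments scaled to transcript length and to the mapped total of the library, and differences are of log2(FPKM + 1), which understates changes of genes near 1 FPKM. Nothing in the labels says that each library came from its own mouse, so errors measure the spread between libraries, which may be technical.

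Ctla2a was about 7 times higher in the mean of each dextran sulfate sodium group than in CON. It had 169, 149, 53.7 and 55.2 FPKM in HMLS replicates 3, 6, 7 and 8. In TM replicates 3, 5, 6, 7 and 8 it had 61.3, 198, 33.3, 127 and 112 FPKM. In DSS replicates 1, 2, 5, 6 and 7 it had 63.0, 26.2, 169, 98.2 and 163 FPKM. All 4 HMLS and all 5 TM libraries, and 4 of 5 DSS libraries, stood above every CON library. The CON libraries ran from 7.54 over a median of 12.1 to 29.2 FPKM. The exception was DSS replicate 2, at 26.2 FPKM, which stood below CON replicates 2 and 8, at 28.5 and 29.2 FPKM.

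In order of their means, Ctla2a was at 107 ± 60.9 FPKM in HMLS (SD, n = 4), 106 ± 63.5 in TM (SD, n = 5), 104 ± 62.1 in DSS (SD, n = 5) and 15.1 ± 8.73 in CON (SD, n = 8). The 3 groups given dextran sulfate sodium did not differ beyond their spread, and the step to CON was larger than the spread. Among the genes above 0 in the same library, Ctla2a stood at percentiles 81.4 to 98.3 in the 14 libraries with dextran sulfate sodium, and at percentiles 58.6 to 86.0 in CON. On the log2(FPKM + 1) scale it was higher than in CON by 2.71 ± 0.427 in HMLS, by 2.65 ± 0.428 in TM and by 2.58 ± 0.446 in DSS (estimate ± SE, limma). These comparisons share the CON libraries. For the background of each comparison, 34.1% of genes tested of the HMLS comparison passed an adjusted p of 0.05 in either direction, as did 26% for TM and 27.1% for DSS. Every library stood above every CON library in 7.81% of genes for HMLS, 4.66% for TM and 4.13% for DSS. Since the choice of genes used these contrasts, nothing is read from where Ctla2a falls against those shares. With the percent of mapped reads as a covariate the difference of Ctla2a between DSS and CON was 2.12 ± 0.748, with 4 genes called higher and 22 called lower among all genes, against 1889 and 1766 without it.

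**Figure D1:**
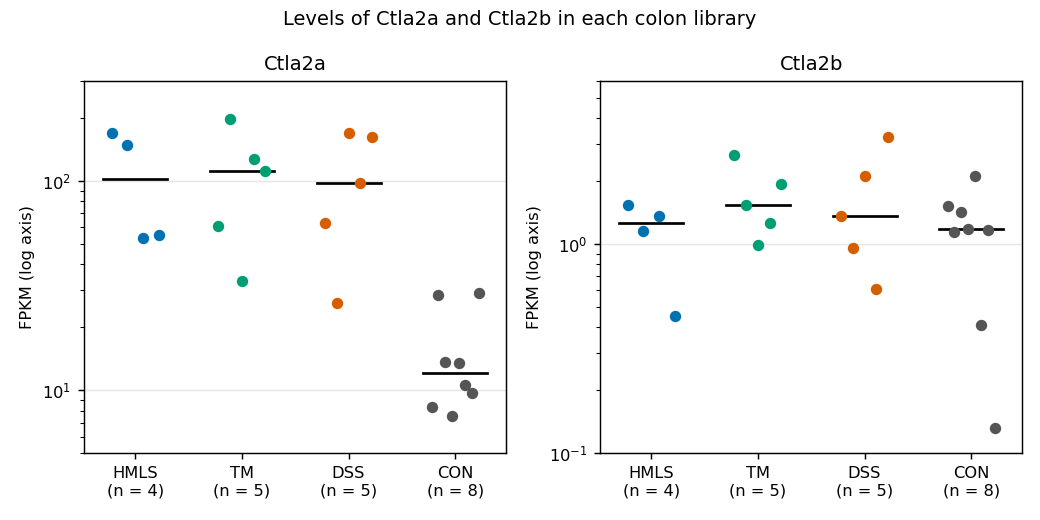
FPKM of Ctla2a (left) and Ctla2b (right) in each library on log axes that differ between the panels, with 1 point per library and a bar at the median of the group. The HMLS and TM points of Ctla2a lie above all CON points, 1 DSS point lies among them, and the groups of Ctla2b overlap.

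Ctla2b was measured at about 1 FPKM in every group, and its groups overlapped. It had 1.53, 1.16, 1.37 and 0.456 FPKM in HMLS replicates 3, 6, 7 and 8. In TM replicates 3, 5, 6, 7 and 8 it had 2.67, 1.53, 0.993, 1.26 and 1.93 FPKM. In DSS replicates 1, 2, 5, 6 and 7 it had 1.36, 0.954, 2.10, 0.609 and 3.25 FPKM. The 4 groups overlapped, since CON ran from 0.133 over a median of 1.18 to 2.11 FPKM, and 0 HMLS, 1 TM and 1 DSS library stood above the highest CON library. In order of their means Ctla2b was at 1.68 ± 0.656 FPKM in TM (SD, n = 5), 1.66 ± 1.05 in DSS (SD, n = 5), 1.14 ± 0.623 in CON (SD, n = 8) and 1.13 ± 0.473 in HMLS (SD, n = 4), and no pair of neighbours differed beyond its spread. The difference from CON was 0.03 ± 0.238 in HMLS, 0.35 ± 0.221 in TM and 0.29 ± 0.257 in DSS on the log2(FPKM + 1) scale. Both genes passed the filter on low values, which kept a gene when 4 or more libraries in the fit reached 1 FPKM. Ctla2a was at or above 1 FPKM in 22 of 22 libraries and Ctla2b in 16 of 22.

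The 2 paralogs therefore stood at very unequal levels per length. The ratio of Ctla2a to Ctla2b had a median of 116 in HMLS (range 39.3 to 128), 58.0 in TM (22.9 to 129), 50.004 in DSS (27.5 to 161) and 8.92 in CON (5.47 to 220). The highest ratio of all was in CON replicate 8, where Ctla2b had its lowest value, 0.133 FPKM, and Ctla2a the highest CON value, 29.2 FPKM. Across the 22 libraries, after group means were removed, the Pearson r between the 2 genes was 0.17 (Spearman rho 0.08). It was -0.42 over the 8 CON libraries and 0.46 over the 14 libraries with dextran sulfate sodium.

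Among the groups given dextran sulfate sodium, no difference between waters was detectable for either gene. Ctla2a in HMLS differed from DSS by 0.12 on the log2(FPKM + 1) scale (95% interval -1.14 to 1.39, limma adjusted p = 0.983). Ctla2a in TM differed from DSS by 0.07 (95% interval -1.12 to 1.26, limma adjusted p = 0.99996). Between HMLS and TM the difference of Ctla2a was 0.05 (95% interval -1.21 to 1.32, limma adjusted p = 0.986). These intervals leave room for changes of more than 1 log2 unit either way, and the DSS libraries also entered the contrast by which Ctla2a was chosen. Leaving out 1 library turned the sign of each of the 3 differences, for example to -0.29 for HMLS vs DSS and to -0.35 for TM vs DSS without DSS replicate 2, and to -0.30 for HMLS vs TM without TM replicate 6. With percent mapped as a covariate Ctla2a differed by 1.01 in HMLS vs DSS (95% interval -0.449 to 2.46, limma adjusted p = 0.696). In that fit Ctla2a differed by 1.39 in TM vs DSS (-0.331 to 3.12, limma adjusted p = 0.978) and by -0.39 in HMLS vs TM (-1.62 to 0.844, limma adjusted p = 0.891). Mapping did not overlap between TM and DSS and hardly overlapped between HMLS and DSS, so water and mapping cannot be told apart there.

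For Ctla2b the difference was -0.26 in HMLS vs DSS (95% interval -0.845 to 0.315, limma adjusted p = 0.893). It was 0.06 in TM vs DSS (95% interval -0.483 to 0.611, limma adjusted p = 0.99996) and -0.33 in HMLS vs TM (95% interval -0.909 to 0.251, limma adjusted p = 0.729). In the background of these 3 comparisons limma called 0% of the 13341 genes tested in HMLS vs DSS, 0% in TM vs DSS and 0% in HMLS vs TM. At an unadjusted p under 0.05 the numbers were 740, 367 and 1260 genes, and neither Ctla2 gene was among them.

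**Figure D2:**
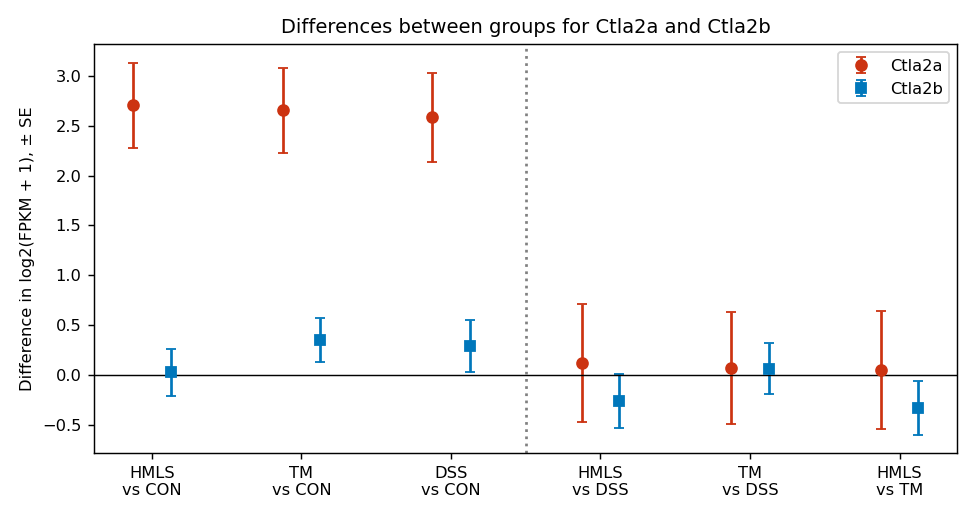
Differences in log2(FPKM + 1) between groups (y axis, estimate ± SE from limma) for Ctla2a (circles) and Ctla2b (squares), with the 3 comparisons against CON left of the dotted line and the 3 among groups given dextran sulfate sodium right of it. Ctla2a lies between 2.58 and 2.71 on the left and near 0 on the right, and Ctla2b lies between -0.33 and 0.35 throughout.

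Proteases of the family that the Ctla2 proteins resemble or inhibit had smaller differences from CON than Ctla2a. Since Ctla2a was chosen among the larger rises in these libraries, nothing about the proteases is read from that contrast. Of 21 genes of the cysteine cathepsin family, with the related Tinag, Tinagl1 and Lgmn, 13 were tested. In HMLS 2 rose and 1 fell against CON, in TM 2 rose and none fell, and in DSS 3 rose and 2 fell. Over all genes tested 34.1% were called in HMLS, 26% in TM and 27.1% in DSS, so these counts of 13 set the list apart in no comparison. The median difference of the list was 0.08 in HMLS, 0.23 in TM and 0.02 in DSS, beside 0.00, 0.01 and -0.01 for all genes tested. Legumain (Lgmn), a lysosomal protease that cuts after asparagine, rose in all 3. It averaged 99.0 ± 30.6 FPKM in HMLS, 117 ± 23.8 in TM, 129.7 ± 59.3 in DSS and 64.2 ± 9.003 in CON (SD, n = 4, 5, 5 and 8). Its differences were 0.58 ± 0.165 in HMLS (limma adjusted p = 0.0151), 0.85 ± 0.127 in TM (limma adjusted p = 0.000547) and 0.88 ± 0.231 in DSS (limma adjusted p = 0.0128).

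Cathepsin C (Ctsc), which activates granule serine proteases, rose by 0.45 ± 0.132 in TM (limma adjusted p = 0.0204) and by 0.37 ± 0.117 in DSS (limma adjusted p = 0.0317). Cathepsin S (Ctss), which trims the invariant chain in antigen-presenting cells, rose by 0.47 ± 0.135 in HMLS (limma adjusted p = 0.0151). Tinagl1, a matrix protein that resembles a cathepsin without being an active one, rose by 0.40 ± 0.141 in DSS (limma adjusted p = 0.0483). Cathepsin H (Ctsh), an aminopeptidase, was at 8.61 ± 0.994 FPKM in HMLS, 13.6 ± 4.02 in TM, 9.36 ± 2.48 in DSS and 14.4 ± 3.51 in CON, and fell by 0.65 in HMLS and by 0.57 in DSS (limma adjusted p = 0.00961 and 0.0304). Cathepsin F (Ctsf) fell by 0.60 in DSS (limma adjusted p = 0.0147). Leaving out 1 library left between 1 and 3 of the list called higher in DSS, with 1 without CON replicate 2.

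Cathepsin L (Ctsl), the enzyme whose propeptide the Ctla2 proteins resemble, is named here outside the rule and after its values were seen. It was at 72.6 ± 22.8 FPKM in HMLS, 72.2 ± 14.2 in TM, 59.9 ± 21.96 in DSS and 55.1 ± 9.50 in CON. Its differences from CON, 0.36 ± 0.166 in HMLS, 0.37 ± 0.139 in TM and 0.06 ± 0.186 in DSS, did not pass (limma adjusted p = 0.104, 0.0583 and 0.830). The placental cathepsins that neighbour the Ctla2 genes were at or close to 0 in all libraries, as described with the locus.

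Other inhibitors of cysteine proteases were mostly below the filter in this colon. Of 27 listed cystatins, stefins, kininogens, serpins and related genes, 6 were at 0 in every library, and 3 were tested in HMLS vs CON and in DSS vs CON, and 4 in TM vs CON. Cystatin C (Cst3), the main secreted cystatin, was at 160.3 ± 12.0 FPKM in HMLS, 189 ± 22.8 in TM, 161 ± 23.1 in DSS and 209.7 ± 15.5 in CON. It fell by 0.38 in HMLS and by 0.39 in DSS (limma adjusted p = 0.00661 and 0.0133), and its difference was -0.16 ± 0.0937 in TM (limma adjusted p = 0.228). Calpastatin (Cast), the inhibitor of calpains, rose by 0.41 ± 0.115 in HMLS (limma adjusted p = 0.0130) and had differences of 0.21 ± 0.0997 in TM and 0.22 ± 0.123 in DSS that did not pass. Cystatin B (Cstb), which acts inside cells, differed by -0.14 ± 0.109 in HMLS, -0.06 ± 0.121 in TM and -0.01 ± 0.0988 in DSS. None of the cysteine cathepsins or other inhibitors passed in a comparison among the 3 groups given dextran sulfate sodium.

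**Figure D3:**
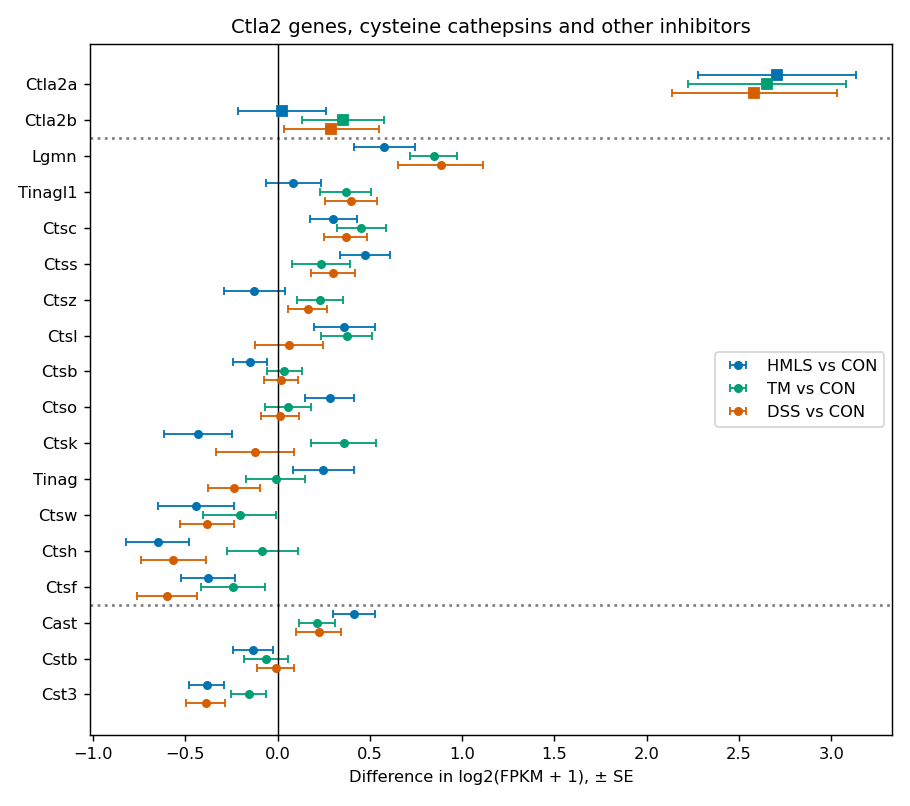
Differences in log2(FPKM + 1) from CON (x axis, estimate ± SE from limma) for the Ctla2 genes (squares, top), 13 cysteine cathepsins and relatives (middle) and 3 other cysteine protease inhibitors (bottom), with HMLS, TM and DSS from top to bottom in each row. Ctla2a, chosen after its rise was seen, stands between 2.58 and 2.71, and the widest difference among the other genes is 0.88, for Lgmn in DSS.

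Most neighbours of the Ctla2 genes stayed under 1 FPKM in these libraries. Of 21 other genes annotated within 500 kb (RefSeq, GRCm38.p6), 13 were in the table, and 12 of these never reached 1 FPKM. They were the placental cathepsins Ctsj, Ctsq, Ctsr, Cts6, Cts7 and Cts8, the related Ctsll3, BC051665 and Cts8-ps, the trophoblast genes Tpbpa and Tpbpb, and 4930486L24Rik, whose highest value was 0.577 FPKM. Tpbpb, Ctsj and Ctsr were listed at 0 in all 22 libraries. Tpbpa, which lies just beyond Ctla2a, reached at most 0.165 FPKM and was at 0 in 19 libraries. Dapk1, a kinase linked to cell death, was the remaining gene, at 8.38 FPKM in the mean of HMLS, 9.12 in TM, 7.42 in DSS and 7.59 in CON. Its differences from CON, 0.12 ± 0.113, 0.21 ± 0.129 and -0.05 ± 0.120 in HMLS, TM and DSS, did not pass (limma adjusted p = 0.427, 0.244 and 0.802).

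Genes known to be induced by glucocorticoids, a class of hormone that acts on many cells of an inflamed gut, were mostly higher in the 3 groups given dextran sulfate sodium, as Ctla2a was. All 16 of the list were tested, and 9 rose in HMLS, 12 in TM and 11 in DSS against CON. None fell in HMLS or TM, and 1 fell in DSS. Over all genes tested, higher and lower together, 34.1% were called in HMLS, 26% in TM and 27.1% in DSS. The median difference of the list was 1.16 in HMLS, 1.08 in TM and 1.18 in DSS. Per1, a clock gene, had 22.02 ± 16.9 FPKM in HMLS, 20.3 ± 6.92 in TM, 24.8 ± 19.3 in DSS and 4.77 ± 1.504 in CON. Ddit4, an inhibitor of mTOR signalling, rose by 2.02 ± 0.384 in HMLS, by 2.76 ± 0.293 in TM and by 2.27 ± 0.407 in DSS (limma adjusted p = 0.00247, 9.34e-05 and 0.00226). Errfi1, which restrains the EGF receptor, rose by 1.20 ± 0.179, 1.04 ± 0.184 and 1.25 ± 0.228 in HMLS, TM and DSS. Sult1a1, a sulfotransferase, was the 1 that fell, by 0.71 in DSS. Within groups, the median r of the list with Ctla2a was 0.50, and it was 0.26 over CON libraries and 0.51 over those with dextran sulfate sodium. With Ctla2b it was 0.16. With percent mapped as a covariate 0 genes of this list passed in DSS vs CON, beside 4 higher and 22 lower of all 13483 genes tested. With the replicate number as a block 2 of the list rose in HMLS vs CON, beside 319 higher and 434 lower of all 13400 genes tested.

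Genes of the TGF-beta pathway, 13 of 14 tested, gave 3 higher and 1 lower in HMLS, 3 higher and 1 lower in TM, and 3 higher and none lower in DSS. These counts of 13 were near the shares called over all genes, 34.1% in HMLS, 26% in TM and 27.1% in DSS. Smad4, the shared signal carrier, rose by 0.81 ± 0.197 in HMLS, by 0.76 ± 0.124 in TM and by 0.80 ± 0.180 in DSS (limma adjusted p = 0.00684, 0.000885 and 0.00624). Skil, a repressor of Smad proteins, rose by 0.58 ± 0.103 in DSS, and Smad2, which is activated by the receptor, rose by 0.56 ± 0.136 in HMLS and by 0.42 ± 0.112 in DSS. The median r of the list with Ctla2a within groups was 0.12.

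Most markers of the cells in which Ctla2a was first described were low in these libraries. For T cells, 11 of 17 listed genes passed the filter over all 22 libraries, and their median r with Ctla2a within groups was -0.22. Their summed level was 9.76 to 13.5 FPKM in HMLS and 13.02 to 26.1 in TM. It was 11.6 to 16.8 in DSS and 10.6 to 28.5 in CON. Which cells held Ctla2a was not tested. In HMLS 2 of 8 tested T cell genes fell against CON, Cd4 and Lck, in TM none of 10 did, and in DSS 2 of 9 fell, Cd2 and Cd27. These counts were no more than the shares called over all genes, 34.1% in HMLS, 26% in TM and 27.1% in DSS. None of this list rose, and without CON replicate 1 the number that fell was 1 in HMLS and 0 in DSS. In bulk tissue fewer cells of a type and less RNA per cell cannot be told apart. Of 13 genes of activated and regulatory T cells, 2 were tested in each comparison. Ikzf2, a transcription factor of regulatory T cells and other cells, was at 10.8 FPKM in HMLS, 8.85 in TM, 9.34 in DSS and 5.90 in CON. It rose by 0.70 ± 0.209 in HMLS, by 0.50 ± 0.155 in TM and by 0.55 ± 0.177 in DSS (limma adjusted p = 0.0183, 0.0266 and 0.0319). The rise of Ikzf2 did not pass without HMLS replicate 6 in HMLS, without TM replicate 3, 6 or 8 in TM, or without any 1 of CON replicates 1, 3 and 7 and DSS replicates 2, 6 and 7 in DSS. Tnfrsf18, a costimulatory receptor, fell by 0.51 in HMLS and by 0.48 in DSS, but did not pass in HMLS without any 1 of CON replicates 1, 3 and 5 and HMLS replicates 7 and 8, or in DSS without any 1 of CON replicates 1, 2, 3, 4, 5 and 7 and DSS replicates 1, 2 and 5. The r with Ctla2a within groups was -0.07 for Ikzf2 and 0.13 for Tnfrsf18. Gzma, a granule protease of cytotoxic cells, was at 2.14 FPKM in HMLS, 4.07 in TM, 4.39 in DSS and 0.955 in CON, and rose by 0.75 ± 0.221, 1.11 ± 0.379 and 1.39 ± 0.303 in HMLS, TM and DSS (limma adjusted p = 0.0175, 0.0447 and 0.00521). In TM the rise of Gzma did not pass when any 1 of CON replicates 1, 3, 4, 5, 6 and 7 or TM replicates 5, 6, 7 and 8 was left out. Gzmb, another granule protease, did not pass in TM or DSS (limma adjusted p = 0.145 and 0.0937) and was not tested in HMLS. Prf1, perforin, was below the filter, at 0.0502 FPKM in HMLS, 0.0572 in TM, 0.0509 in DSS and 0.111 in CON. Gzma is 1 gene, and no change of cytotoxic cells is read from it. For mast cells, 13 genes were listed, and the defining proteases were near 0. Cpa3 averaged 0.0692 FPKM in HMLS, 0.0799 in TM, 0.0260 in DSS and 0.0792 in CON, and Fcer1a was at 0 in every library. The summed mast cell list, 22.4 to 41.3 FPKM in HMLS, 19.4 to 47.4 in TM, 22.8 to 40.1 in DSS and 43.6 to 62.3 in CON, was carried by Kit, which other colon cells also express and which fell in all 3 comparisons, though in TM not without CON replicate 2.

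Several blood endothelial genes were lower than in CON in HMLS and DSS, and fewer were in TM. Of 18 tested, none rose and 9 fell in HMLS, 2 in TM and 7 in DSS, beside 34.1%, 26% and 27.1% of all genes called in either direction. Sox18, a vascular transcription factor, fell by 1.18 in HMLS, by 0.69 in TM and by 0.91 in DSS (limma adjusted p = 0.000700, 0.00469 and 0.00735). Kdr, a VEGF receptor, fell by 0.91 in HMLS and by 0.71 in DSS. Without CON replicate 8 the number that fell was 13 in HMLS, 7 in TM and 13 in DSS, and it was 4 in HMLS without HMLS replicate 8. With percent mapped as a covariate the number that fell was 0 in DSS, beside 22 lower of all 13483 genes tested. Their median r within groups was 0.17 with Ctla2a and 0.59 with Ctla2b. Of 10 macrophage genes, whose median r was 0.08 with Ctla2a and 0.56 with Ctla2b, none rose and 5 fell in HMLS, 2 rose and none fell in TM, and 1 rose and 2 fell in DSS. Neutrophil genes summed to medians of 14.5 FPKM in HMLS, 23.7 in TM, 12.3 in DSS and 1.602 in CON, and each of those tested rose, 1 in HMLS and 3 each in TM and DSS. Fibroblast genes summed to medians of 143 FPKM in HMLS, 175 in TM, 179.7 in DSS and 355 in CON, and of 7 tested 6 fell in HMLS, 3 in TM and 6 in DSS. Within groups the median r with Ctla2a was 0.27 for neutrophil genes (3 genes) and 0.07 for fibroblast genes (7 genes).

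Within groups, Ctla2a varied with genes of nerve tissue, and among libraries with dextran sulfate sodium also with lymphatic genes. Likeness was measured as the Pearson r of log2(FPKM + 1) over the 22 libraries after group means were removed, for 13787 other genes above the filter. These are descriptions over points that share library, depth and tissue, with no p. With the percent of mapped reads, group means removed, Ctla2a had an r of -0.34 over 22 libraries. That r was -0.51 over the 14 libraries with dextran sulfate sodium. The median r of all genes was -0.01, and 95% lay between -0.59 and 0.70. Genes with the highest r were Grip2, a synaptic scaffold (0.92), Adamtsl1, a matrix glycoprotein (0.92), Fmo2, a flavin monooxygenase (0.92), Ntn1, the guidance protein netrin-1 (0.91), Slc2a4, the glucose transporter that responds to insulin (0.91), Hoxd9, a homeobox gene (0.91), and Tenm2, a neuronal adhesion molecule (0.90). Over the 8 CON libraries alone the r of these 7 genes ranged from 0.76 for Tenm2 to 0.98 for Grip2, and over the 14 libraries with dextran sulfate sodium from 0.91 for Grip2 to 0.97 for Ntn1. Without the 2 libraries farthest from the median of Ctla2a they ranged from 0.88 to 0.92.

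Of these 7 genes 6 were tested against CON, and their differences were at most 0.78. Fmo2 was at 19.6 FPKM in the mean of HMLS, 17.5 in TM, 17.2 in DSS and 10.6 in CON, and rose by 0.78 in HMLS, by 0.65 in TM and by 0.58 in DSS (limma adjusted p = 0.00440, 0.00553 and 0.0451). Adamtsl1 was at 2.08 FPKM in HMLS, 1.963 in TM, 2.15 in DSS and 1.81 in CON, and its differences did not pass. The 4 genes with the lowest r were Mcmbp, a partner of the replication helicase (-0.82), Commd1, a copper and NF-kB regulator (-0.80), Steap1, a membrane protein of the metalloreductase family (-0.79), and Hoxa3, a homeobox gene (-0.78).

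Since nerve genes were among those most like Ctla2a, a list of 17 enteric neuron genes was added after this was seen. Of these, 16 passed the filter, and all 16 had an r with Ctla2a above 0.5 (median 0.77). Among them were Scg3 (0.88), Syt1 (0.89) and Syp (0.86), all of secretory or synaptic vesicles. The median r of all 13787 genes was -0.01, and their share above 0.5 is not given here. Because the list was made after nerve genes were seen to vary with Ctla2a, a high count was favoured by that choice. Against CON 15 genes of the list were tested, none fell, and 2 rose in HMLS, 1 in TM and 1 in DSS. These counts of 15 were below the shares called over all genes, 34.1% in HMLS, 26% in TM and 27.1% in DSS. Gal, the neuropeptide galanin, rose by 1.27 ± 0.267 in HMLS, by 1.13 ± 0.334 in TM and by 1.24 ± 0.391 in DSS (limma adjusted p = 0.00333, 0.0243 and 0.0315). Stmn2, a regulator of microtubules in neurons, rose by 0.79 ± 0.197 in HMLS (limma adjusted p = 0.00735). No gene of the list passed in TM without TM replicate 5, 7 or 8, or in DSS without any 1 of CON replicates 1, 2, 3 and 4 and DSS replicates 5 and 7, while 4 rose in DSS without DSS replicate 2 and 3 rose in TM without TM replicate 6. The mean log2(FPKM + 1) of the list was 2.83 ± 0.395 in HMLS, 2.82 ± 0.430 in TM, 2.87 ± 0.718 in DSS and 2.62 ± 0.265 in CON (SD). Its r with Ctla2a after group means were removed was 0.85 over 22 libraries (Spearman rho 0.82), 0.95 over the 14 libraries with dextran sulfate sodium and 0.42 over the 8 CON libraries. With Ctla2b it was 0.31 over 22 libraries, 0.58 over the 14 libraries with dextran sulfate sodium and -0.42 over the 8 CON libraries. Enteric glia genes (4 genes), also listed after the data were seen, had a lower median r with Ctla2a, 0.46. The lowest Ctla2a values of DSS (replicate 2) and of TM (replicate 6) were in the libraries with the lowest neuron mean of their groups, 1.06 and 0.60 below the group mean. In the other groups they were different libraries. The lowest Ctla2a value was in HMLS replicate 7 and CON replicate 4, and the lowest neuron mean in HMLS replicate 8 and CON replicate 1.

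With this mean as a covariate, an alternative chosen after seeing the data, Ctla2a was higher than in CON by 2.38 ± 0.350 in HMLS, by 2.29 ± 0.312 in TM and by 2.24 ± 0.292 in DSS. The differences among the groups with dextran sulfate sodium had narrower intervals in that fit. For Ctla2a they were 0.19 in HMLS vs DSS (95% interval -0.246 to 0.622), 0.15 in TM vs DSS (-0.264 to 0.554) and 0.04 in HMLS vs TM (-0.391 to 0.476), with limma adjusted p from 0.809 to 0.9996. Nerve genes were listed because they varied with Ctla2a in these same libraries, so a smaller spread followed from that choice. The narrower intervals therefore add no evidence on the waters.

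**Figure D4:**
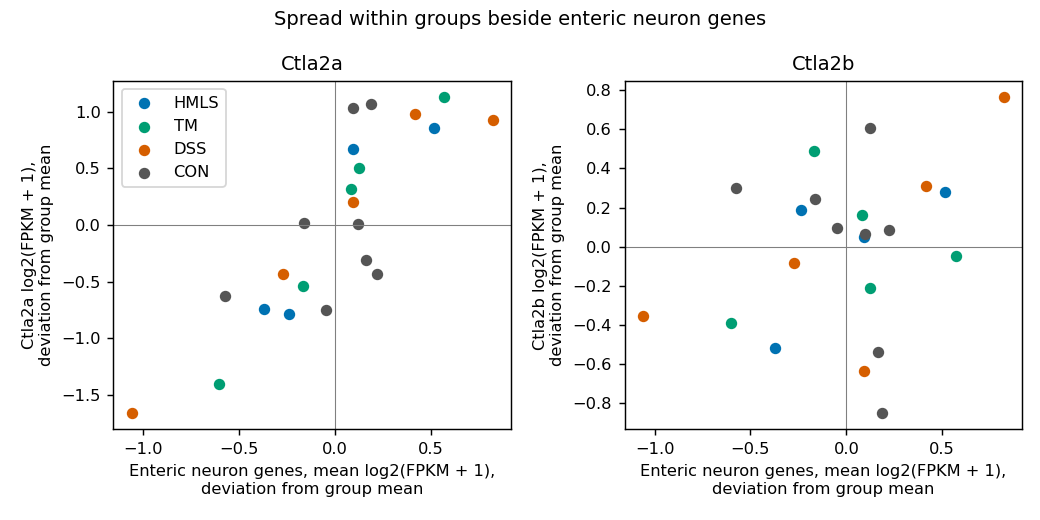
Deviation of Ctla2a (left) and Ctla2b (right) from the mean of their group in log2(FPKM + 1) (y axis) against the deviation of the mean of 16 enteric neuron genes (x axis), with 1 point per library. Points of Ctla2a rise from lower left to upper right (r 0.85), and those of Ctla2b are scattered (r 0.31).

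Of 7 lymphatic endothelial genes, 6 had an r above 0.5 with Ctla2a (median 0.72). The median r of all 13787 genes was -0.01, and their share above 0.5 is not given here. Reln, which encodes reelin, had 0.79, Prox1, the regulator of lymphatic identity, 0.77, and Mmrn1 0.76. The median of the 7 genes with Ctla2a was 0.83 over libraries with dextran sulfate sodium and close to 0 over CON libraries. With Ctla2b their median r was 0.47 over 22 libraries. It was 0.54 over libraries with dextran sulfate sodium and 0.48 over CON libraries. Against CON, Prox1 rose and Pdpn and Ccl21a fell in HMLS, Reln rose in TM, and Pdpn fell in DSS. The shares called over all genes in either direction were 34.1% in HMLS, 26% in TM and 27.1% in DSS. Without HMLS replicate 8 none fell in HMLS, without TM replicate 7 none rose in TM, and without CON replicate 1 none fell in DSS. The summed list was 18.2 to 43.0 FPKM in HMLS, 33.5 to 52.5 in TM, 9.40 to 51.1 in DSS and 25.4 to 42.8 in CON. For smooth muscle, listed after the data were seen, the median r was 0.43, and it was 0.65 over libraries with dextran sulfate sodium and -0.30 over CON libraries. Of 6 smooth muscle genes none rose against CON, none fell in HMLS, 4 fell in TM and 3 fell in DSS. Beside these stand the same shares over all genes, 34.1% in HMLS, 26% in TM and 27.1% in DSS. Cnn1, calponin, fell by 1.14 in TM and by 1.29 in DSS (limma adjusted p = 0.00328 and 0.00705), Des, desmin, by 1.02 and 1.08 (0.0112 and 0.0181), and Actg2, an enteric actin, by 0.91 and 0.99 (0.00885 and 0.0206). Acta2, another smooth muscle actin, fell by 0.62 in TM (limma adjusted p = 0.0111). With percent mapped as a covariate none of the 6 passed in DSS, beside 4 higher and 22 lower of all 13483 genes tested. Without DSS replicates 2 and 5 in turn the number that fell in DSS was 2 and 5. For colonic epithelium the median r was -0.33. The part of these cell types, or of enteric neurons, in the values of Ctla2a was not tested. The fit with the enteric neuron mean could not test it, since nerve genes were listed for their likeness to Ctla2a.

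**Figure D5:**
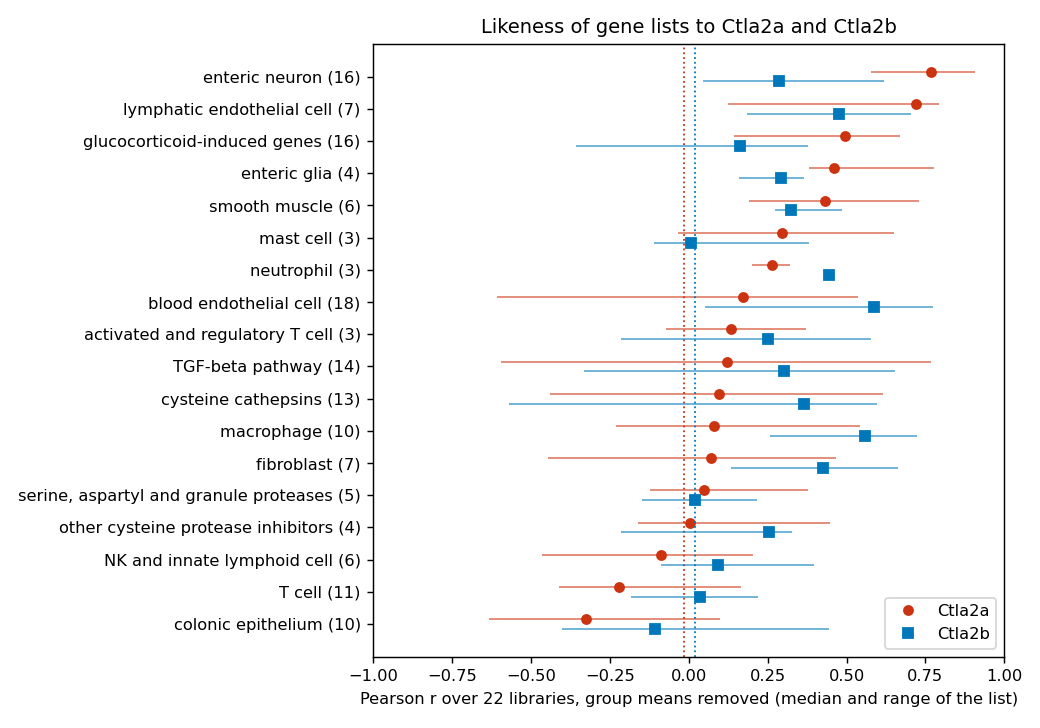
Median (symbol) and range (line) of Pearson r with Ctla2a (circles) and Ctla2b (squares) within groups over 22 libraries, for the genes of each list that passed the filter (their number in brackets), with dotted lines at the median of all genes. Enteric neuron and lymphatic endothelial genes lie highest for Ctla2a, and blood endothelial and macrophage genes lie highest for Ctla2b.

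The genes with the highest r with Ctla2b were other than those named for Ctla2a. The 8 with the highest r were Ifitm2, an interferon-induced membrane protein (0.82), C1ra, a complement protease (0.81), Loxl4, a collagen crosslinker (0.81), Fbn1, fibrillin-1 (0.80), Heg1, a receptor of endothelial junctions (0.79), Gramd1a, a cholesterol carrier (0.79), Icam1, a leukocyte adhesion molecule (0.78), and Mmp14, a membrane metalloprotease (0.78). The lowest were Adi1, of methionine salvage (-0.81), Mpzl2, an epithelial adhesion molecule (-0.74), Slc2a13, a myo-inositol transporter (-0.74), and Pon3, a paraoxonase (-0.72). At about 1 FPKM the pseudocount bears on these values, and with 0.1 in place of 1 the r of Ifitm2 was 0.74 and that of C1ra 0.76. Genes with an r of at least 0.8 numbered 5 for Ctla2b, against 87 for Ctla2a.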

How the data were processed

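RNA of mouse colon was made into libraries with a stranded total RNA kit, per the labels' protocols. The submitters' processing notes name bcl2fastq 2.20, Bowtie, TopHat2 2.0.13, Cufflinks 2.2.0 and build mm10. The authors deposited 1 table of expression values, which names no unit and was read as FPKM because Cufflinks is named, and the count of reads and the percent mapped of each library. Read counts per gene were not analysed here, so the depth behind a gene's value is unknown, and FPKM falls where a few abundant genes rise.

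The tests were run in limma 3.58.1 (R 4.3.3, trend and robust variance) on log2(FPKM + 1). Genes entered when 4 or more libraries in the fit reached 1 FPKM, and p was adjusted over all of them by Benjamini-Hochberg. A fit against CON held 2 groups, while the comparisons among HMLS, TM and DSS came from 1 fit of all 3. The fit was tested on simulated data. Members and lists were chosen with earlier results of these data known. Named genes were the 8 highest and 4 lowest by r (predicted genes, small RNAs, pseudogenes and receptor segments left out), with 1 item not reported here, up to 4 per described list by p in DSS vs CON, called cathepsins and neighbours within 500 kb. Some further list members were named after their values were seen. Sequences were aligned with Biopython 1.88. Replicate numbers in titles were checked for pairing. In TM vs DSS the 3 same-numbered pairs correlated at 0.137 to 0.432 after group means were removed, and no other comparison had every pair above 0.1, so a fit with replicate number as a block was an alternative.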

Additional observations from a re-analysis of the deposited data

How the results depend on the processing

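The difference of Ctla2a from CON kept its direction, and moved by less than the spread between libraries, under every alternative run. Leaving out 1 library gave 2.42 to 2.97 in HMLS, 2.37 to 3.004 in TM and 2.34 to 2.9997 in DSS. With the replicate block these differences were 2.62, 2.58 and 2.65. No alternative brought a difference among the groups given dextran sulfate sodium past the threshold for either gene. Their signs turned in several. With the replicate block Ctla2a was at -0.31 in HMLS vs DSS and at -0.55 in TM vs DSS, and Ctla2b at -0.15 in TM vs DSS. With percent mapped as a covariate Ctla2a was at -0.39 in HMLS vs TM, and it moved most in the other 2, to 1.01 in HMLS vs DSS and 1.39 in TM vs DSS, neither past the threshold. In those 2 comparisons mapping overlapped little or not at all between the groups. With quantile normalization Ctla2b was at -0.0078 in TM vs DSS. Leaving out 1 library gave -0.29 to 0.38 for Ctla2a in HMLS vs DSS, -0.35 to 0.42 in TM vs DSS and -0.30 to 0.34 in HMLS vs TM, and -0.10 to 0.26 for Ctla2b in TM vs DSS. Against CON, Ctla2b was at -0.18 in DSS with percent mapped as a covariate and at 0.81 in TM with a pseudocount of 0.01. In HMLS vs CON, Ctla2b ran from -0.10 to 0.20 when 1 library was left out. The cause of these changes was not tested.

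Among all genes the replicate block called 319 higher and 434 lower for HMLS against CON, 1086 and 914 for TM, and 1125 and 1051 for DSS, beside 2339 and 2226, 1924 and 1586, and 1889 and 1766 without it. With percent mapped as a covariate 1540 were higher in HMLS vs CON. Cysteine cathepsins called lower in HMLS vs CON were 2 instead of 1 under median-ratio scaling and under quantile normalization. With the replicate block none of that list passed in HMLS vs CON. The r between the 2 genes turned to -0.42 over CON libraries alone.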
